A study of Mus musculus with 2 samples.

Results

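Prefix models are transcript models that carry the first introns of an annotated transcript in order and then stop before its remaining introns are spliced. They were examined in long-read RNA sequencing, in which 1 read spans most of an RNA molecule, of mouse left cerebral cortex. The models were those deposited as incomplete splice matches of the prefix kind in an annotated gene, with the same chromosome, strand and chain of introns in both libraries and at least 1 read in each. The rule found 1020 such models in 837 genes. They were 32.0% of the 3190 prefix models of replicate 1 and 27.2% of the 3744 of replicate 2, where the series held 85769 and 95147 spliced models of all kinds. Both libraries belonged to 1 group of male B6CASTF1/J mice aged 14 days with no treatment given in the labels, the F1 offspring of the inbred strains C57BL/6J and CAST/EiJ. Each library was made from 2 µg of total RNA, with Ambion ERCC and Lexogen spike-ins. The labels call them biological replicates 1 and 2 but give both the same donor identifier and mention several males, so whether they came from separate animals or from pools was not settled. Differences between them therefore measured only the spread between these 2 libraries, which may be technical.

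An RNA ends where the cleavage and polyadenylation machinery cuts the nascent transcript, usually a short way past a poly(A) signal such as AATAAA. Introns hold many sequences of this kind, and U1 snRNP, which binds 5′ splice sites, is known to keep most of them silent. A transcript that ends inside an intron lacks the coding sequence and the 3′ untranslated region of the later exons, and in neurons such shortened forms are known for several receptors and scaffold proteins. In library preparation, a primer of T bases can also anneal to a stretch of A inside an RNA, which yields a read that ends there. The primer used is not given in the sources used here.

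The bases at some deposited ends are shown for prefix models named for their reads or for their share of the gene's reads. The windows read for Enpp5, Cdk17, Ccnl2 and 2610005L07Rik held no poly(A) signal in the last 30 bases and, where the bases after the end were read, for Enpp5 and Ccnl2, no run of 4 A, and are not shown. The first set holds a poly(A) signal, in capitals, in the last 30 bases before an end in an intron. They are the ends of Caprin1 (chr2:103767107-103767136, minus strand), Map3k10 in replicate 1 (chr7:27664158-27664187, minus strand) and Phf20l1 (chr15:66611587-66611616, plus strand). The Map3k10 window was also rich in A, with 20 of 30 bases. The bases after these ends were not read.
Caprin1: cactcAATAAAtacttgttgaatgaatgaa
Map3k10: aATTAAAagtggATTAAAaaagaaaagaaa
Phf20l1: aagatgaacAATAAAattgtttatttacaa
The second set shows ends of models that had run through the last intron, with the signal again in capitals. They are Mbd3 in replicate 2 (chr10:80392539-80392568, minus strand), Igsf8 (chr1:172319806-172319835, plus strand) and Pnisr, which ended at 2 places, in replicate 1 (chr4:21875227-21875256, plus strand) and in replicate 2 (chr4:21876438-21876467, plus strand).
Mbd3: ttcAATAAActgatggtaggaacttgtgaa
Igsf8: ttctaaaatgtgAATAAActggttttgtaa
Pnisr, replicate 1: AATAAAactatttagttcatttttgttaaa
Pnisr, replicate 2: aagtattattttcaaAATAAAattctactg
The third set shows what follows the end, and capitals mark runs of 4 or more A. The last 30 bases before the ends of Son and Sec62 held no such hexamer. For Eif5b the bases before the end are not reported here. Son ended inside an exon, at the base before chr16:91654700-91654729 (plus strand), where 23 of 30 bases were A. Sec62 and Eif5b ended exactly at the last base of an exon. The first 30 bases of the next exon of the parent transcript lie at chr3:30810445-30810474 and at chr1:38022164-38022193, both on the plus strand, with 15 and 18 A. In the first 20 of these bases Sec62 had 7 A and Eif5b 12, and only Eif5b met the rule for an A-rich stretch used below. Kif5c, the other named model that ended at such a place, had 5 A in the first 20 bases of its next exon.
Son, after the end: AAAAAgcacAAAAAcAAAAAgaagAAAAAg
Sec62, next exon: gaggaaactccaggaactccAAAAAAgaag
Eif5b, next exon: gaacgattagaacaagAAAAAAgagaaagg
The bases were read from GENCODE M21 transcript sequences on mm10. A window in an intron that no annotated exon of the gene covers was not analysed here.

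The libraries held 775048 mouse reads in replicate 1 and 924222 in replicate 2. All 7 markers of cortical excitatory neurons were read in both, at a summed level of 3617 and 5169 CPM, that is reads scaled to all mouse reads of the library. The 5 striatal markers summed to 906 and 220 CPM with Drd2 at 0 in replicate 2, the 3 choroid plexus markers to 38.7 and 256 CPM with Clic6 at 0 in replicate 1, and the 4 oligodendrocyte markers to 2519 and 1636 CPM. The 3 cerebellar markers summed to 11.6 and 9.74 CPM, and of these Gabra6, which defines cerebellar granule cells, was at 0 in both. In bulk tissue, fewer cells of a type and less RNA per cell cannot be told apart. The part of this difference in the results on prefix models was not tested.

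Few reads supported most of the models. They held 3158 reads in replicate 1 and 3494 in replicate 2, which was 0.407% (95% exact binomial interval 0.393 to 0.422%) and 0.378% (0.366 to 0.391%) of mouse reads. The mean share was 0.393% ± 0.0208 (SD, n = 2). Of the 1020 models, 349 had exactly 1 read in each library, 352 had at least 2 in each and 118 had at least 5 in each. The 20 models with most reads held 20.5% and 21.3% of the reads. These counts chose the models and are a description. Just outside the rule stood models with reads in a single library: Smap1 with 82, Mlf2 with 35 and Dynlt1b with 17 reads in replicate 1, and Ints6 with 24, Ttc4 with 22 and Caprin1 with 21 in replicate 2. A model read in 1 library only had exactly 1 read in 1922 of 2170 cases in replicate 1 and 2368 of 2724 in replicate 2. A total of 992 models lay in protein-coding genes, 709 genes held 1 model, and 128 held 2 or more, led by AC149090.1 with 13 and Ssbp4 with 8. A model was held by 0.611% of genes with fewer than 10 reads over both libraries, by 379 of 7579 genes with 10 or more but fewer than 100, by 11.6% of those with 100 or more but fewer than 1000 and by 20.7% of those with 1000 or more.

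**Figure D1:**
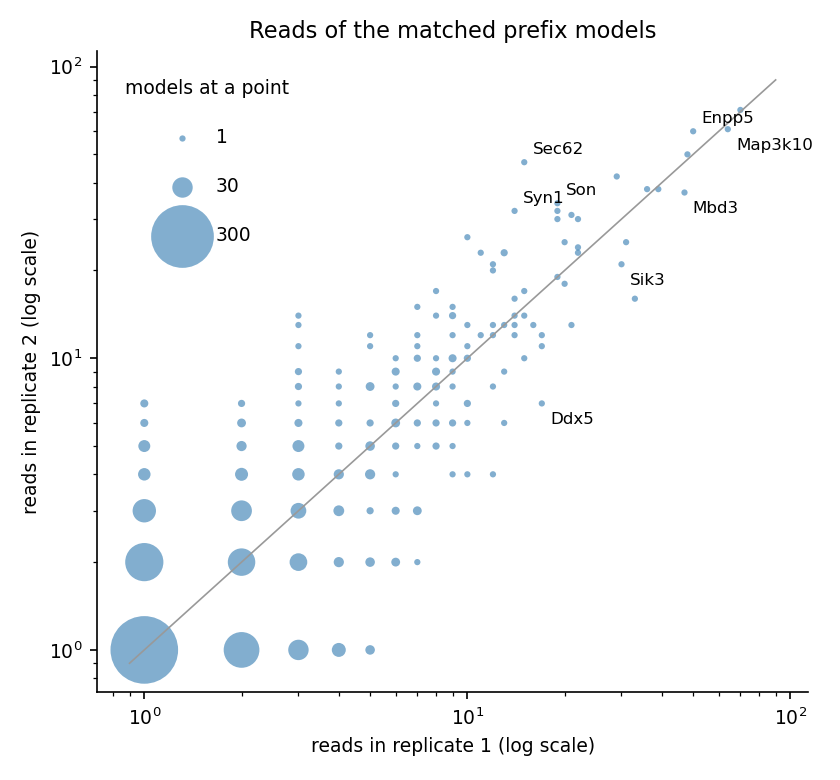
Reads of each matched prefix model in replicate 1 (x axis) and replicate 2 (y axis), both on log scales, with point area growing with the number of models at that pair of counts and a line of equal counts. The largest point is the 349 models with 1 read in each library, and Sec62, with 15 and 47 reads, lies above the line.

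For 890 of the 1020 models an annotated transcript of the GENCODE M21 release began with the same introns. Among these parents, the one with most reads served to place the end. Placed against this single parent, the most frequent end lay in the intron right after the last spliced exon: 379 of 890 models (42.6%, 95% exact interval 39.3 to 45.9%) in replicate 1 and 371 (41.7%, 38.4 to 45.0%) in replicate 2. Ends inside the last shared exon numbered 56 and 53, and ends exactly at its 5′ splice site 79 and 83. A further 67 and 65 models ran through at least 1 whole intron and stopped before the last exon of the parent. The remaining 309 (34.7%) and 318 (35.7%) had run unspliced through the intervening introns into the last exon, and 205 and 211 of all models ended within 50 bases of the parent's own end. The description as early-ending therefore did not hold for the models that reached the last exon, which were 295 in both libraries together. They carried an unspliced last part, some also ended well before the parent's end, and 227 of 309 and 235 of 318 of them had left exactly 1 intron unspliced. When any annotated exon of the gene was counted as exonic, the mean share ending in the next intron was 22.8%, below the share that reached the last exon. The kind of end was the same in both libraries for 822 of 890 models (92.4%).

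Counted by reads, models that ended in the next intron held 1159 of 3158 reads (36.7%) in replicate 1 and 1263 of 3494 (36.1%) in replicate 2. Models that reached the last exon held 1050 (33.2%) and 1154 (33.0%). Those that ended at a 5′ splice site held 165 (5.22%) and 223 (6.38%), and those that ended inside an exon 223 (7.06%) and 209 (5.98%). Against the single parent, ends in the next intron thus also led when counted by reads.

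Prefix models matched in both libraries stood beside those read in only 1 library, with no test, since being matched was itself chosen on reads. Ends at a 5′ splice site made up 8.88% and 9.33% of the matched models, against 16.1% and 16.2% of the models of replicate 1 only and replicate 2 only. The last exon was reached by 34.7% and 35.7% of the matched models, against 27.3% and 28.8% of those of 1 library. No annotated parent was found for 12.7% of the matched models, against 24.4% and 25.6% of those of 1 library. Ends in the next intron took similar shares, 42.6% and 41.7% against 43.2% and 40.5%. The matched models lay in genes with a median of 55 and 63 reads in replicates 1 and 2, against 41 and 47 reads for those of 1 library.

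**Figure D2:**
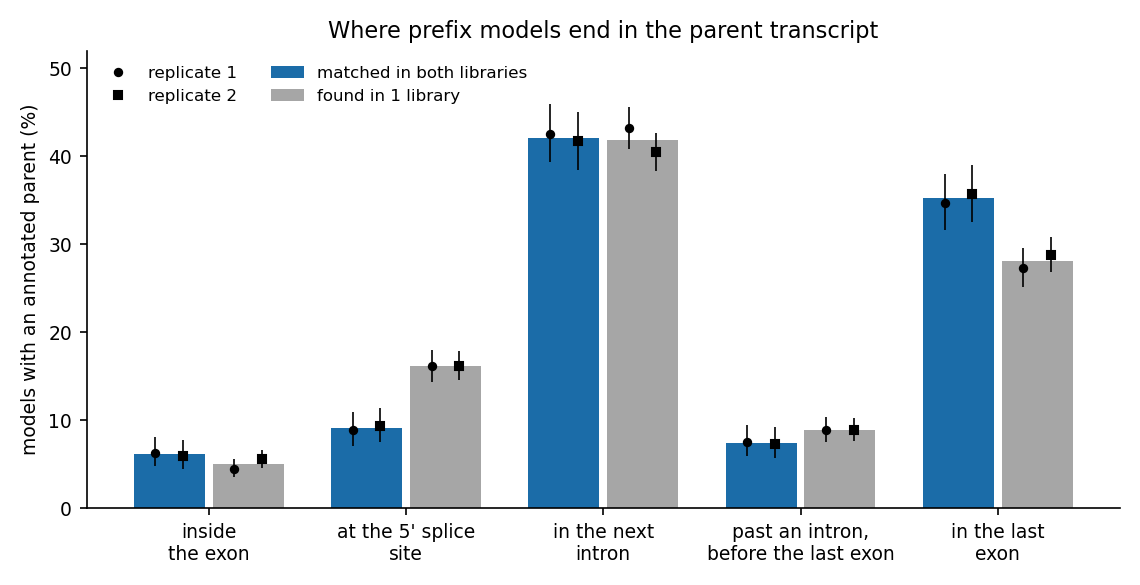
Share of prefix models with an annotated parent (y axis, percent) by where they ended in the parent transcript (x axis), for models matched in both libraries (blue, left) and models found in 1 library (grey, right). Bars give the mean of both libraries, and points each library with its 95% exact interval; ends at the 5′ splice site were 8.88% and 9.33% in the matched models and 16.1% and 16.2% in the others.

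The models kept a median of 66.7% of the parent's introns (quartiles 33.3 and 84.6%), that is a median of 6 introns, where the parents had a median of 10. Models of 1 library kept 53.8% in replicate 1 and 56.1% in replicate 2. Among the models that ended before the last exon, the median was 50% in both libraries, and ends were spread along the gene: 23.9% of these models kept up to 25% of the introns in replicate 1, 30.1% kept over 25 to 50%, 23.8% over 50 to 75% and 22.2% more than 75%. Of these models, 524 of 545 (96.1%) in replicate 1 and 516 of 536 (96.3%) in replicate 2 ended before the annotated stop codon of a coding parent. Of those that reached the last exon, 7 of 290 (2.41%) and 12 of 299 (4.01%) did so. In models of 1 library the shares were 97.2% and 97.8%, against 2.81% and 2.29%. An end before the last exon lies before any stop codon in that exon, so the definition of the classes favours this contrast. Models that ended in an intron reached a median of 866 bases past the 5′ splice site in replicate 1 (quartiles 458 and 1640) and 832 in replicate 2 (452 and 1595). Those introns had a median length of 3477 and 3412 bases, against 469 and 485 bases for the introns that the models reaching the last exon had first run through. In 297 of 379 models (78.4%) and 292 of 371 (78.7%), the intron with the end was longer than the median of the parent's other introns. In models of 1 library this was 77.3% and 79.8%. An intron can hold an end only if it is longer than the distance run into it, and a shorter one counts as run through. The way the classes were made therefore favours these differences in intron length.

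Map3k10, which encodes a mixed-lineage kinase of the JNK pathway, had 64 and 61 reads of a model with 3 of 9 introns. They were 57.7% and 62.2% of the gene's 111 and 98 reads. The 2 annotated parents, Map3k10-201 among them, had 8 and 4 reads together. The model ended 240 bases into the next intron in replicate 1, at the end of the annotated retained-intron transcript Map3k10-205, and 562 bases into it in replicate 2. In both libraries the shortened form was thus read more often than its annotated parents together.

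Enpp5, an ectonucleotide pyrophosphatase/phosphodiesterase family member, had 50 of 99 reads in replicate 1 and 60 of 119 in replicate 2 in a model with 2 of 3 introns, against 15 and 18 reads of Enpp5-201. The ends lay 455 and 452 bases into the last intron, 3 bases apart, at no annotated end. The share of the gene was 50.5% and 50.4%.

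Caprin1, a cell-cycle associated RNA-binding protein of neuronal RNA granules, had 39 and 38 reads of a model with 17 of 18 introns, 22.0% and 23.3% of the gene. Both ends lay 1299 bases into the last intron of Caprin1-201, at the end of the coding transcript Caprin1-209. Sik3, a salt-inducible kinase, had 30 of 46 and 21 of 35 reads in a model with 13 of 24 introns that ended at the same base as Sik3-203. Phf20l1, a Tudor and PHD finger protein, had 22 of 69 and 30 of 95 reads with 7 of 19 introns, 33639 bases before the end of the parent. Each of these 3 ended in an intron at the same base in both libraries. For Phf20l1 too this was an annotated end, that of the coding transcript Phf20l1-209.

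Jade1, a subunit of the HBO1 histone acetyltransferase complex, had 16 of 24 and 13 of 31 reads with 8 of 10 introns, at the end of Jade1-206. Phf10, a subunit of the BAF chromatin remodelling complex, had 14 of 35 and 13 of 30 reads at the end of Phf10-203, which is annotated as a target of nonsense-mediated decay. Kmt2e, a SET domain protein, had 14 of 30 and 12 of 32 reads, ending inside an exon at the end of Kmt2e-209, annotated as a processed transcript. In these 3 genes of chromatin proteins the intervals of the shares overlapped between libraries. They were chosen for their high share of the gene's reads, so that share is no finding.

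Other models with many reads reached the last exon. Cdk17, a cyclin-dependent kinase, had 48 of 273 and 50 of 213 reads with 15 of 16 introns and ended at the parent's own last base, with its last intron of 544 bases unspliced. Mbd3, a subunit of the NuRD complex, had 47 of 148 and 37 of 183 reads with a last intron of 76 bases unspliced, and its ends lay 1539 bases apart. Pnisr, an arginine- and serine-rich nuclear protein, had 36 of 84 and 38 of 121 reads, with ends 1211 bases apart that both carry a poly(A) signal in the sequences above. Qsox2, a sulfhydryl oxidase, had 17 of 30 and 12 of 21 reads and ended at the last base of Qsox2-201. All 4 models reached the last exon of the parent with exactly 1 intron left unspliced.

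Son, a large protein of nuclear speckles that supports splicing, had 19 of 35 and 34 of 50 reads in a model that stopped 5881 bases before the end of a long exon, at the same base in both libraries. The bases after that end are the A-rich run shown above. Ccnl2, a cyclin of nuclear speckles, had 31 of 116 and 25 of 137 reads, ending 99 bases before a 5′ splice site. Eif5b, a translation initiation factor, had 11 of 28 and 12 of 23 reads and ended at the 5′ splice site after 4 of 23 introns. Cryzl1 had 19 of 95 and 32 of 132 reads with 8 of 12 introns, and its kind of end differed between libraries. The end lay in the next intron in replicate 1 and past 2 whole introns in replicate 2, 1866 bases apart.

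The loci AC149090.1 and 2610005L07Rik cannot be assigned with certainty. AC149090.1, on the unplaced scaffold chrUn_JH584304, had 70 and 71 reads of a model with 5 introns and no annotated parent, and 2610005L07Rik, annotated as a transcribed unprocessed pseudogene, had 29 of 77 and 42 of 96 reads. Copies of such sequences elsewhere in the genome could share reads, and this was not tested.

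**Figure D3:**
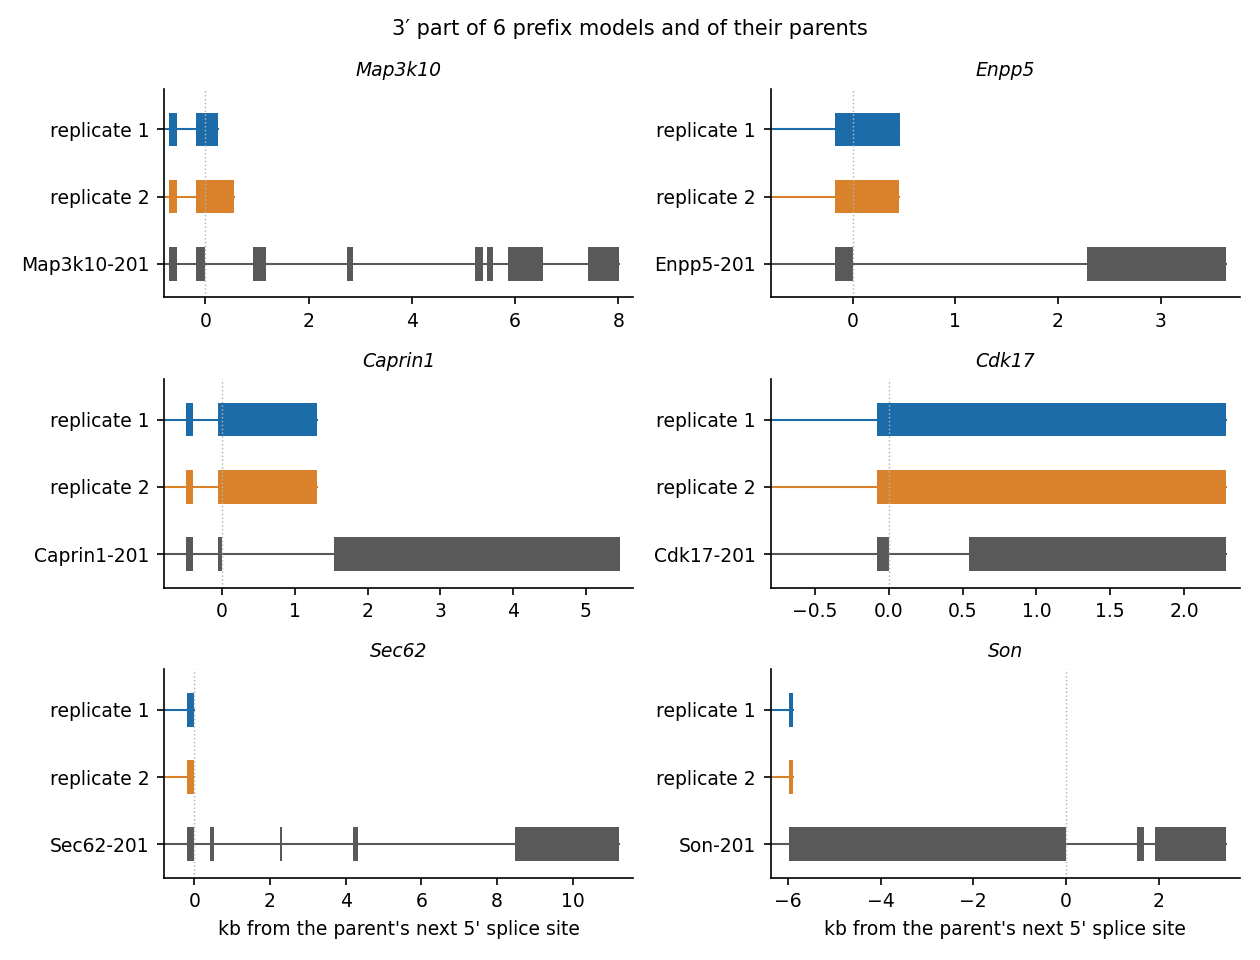
Exons (boxes) and introns (lines) of the 3′ part of 6 prefix models in replicate 1 (blue) and replicate 2 (orange) above the parent transcript (grey), against the distance in kb from the 5′ splice site at which the parent goes on to splice (dotted line). Map3k10, Enpp5 and Caprin1 ended in the next intron, Cdk17 ran through it to the parent's end, Sec62 stopped at the splice site and Son stopped 5881 bases before it.

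In 791 models the gene itself had 20 or more reads in both replicates, and their median share of the gene's reads was 2.27% in replicate 1 and 2.08% in replicate 2. In 108 of them it was at least 5% in both libraries, in 50 at least 10%, in 25 at least 20% and in 5 at least 50%. A share of this kind cannot tell a change in the prefix model from a change in the gene's other transcripts.

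**Figure D4:**
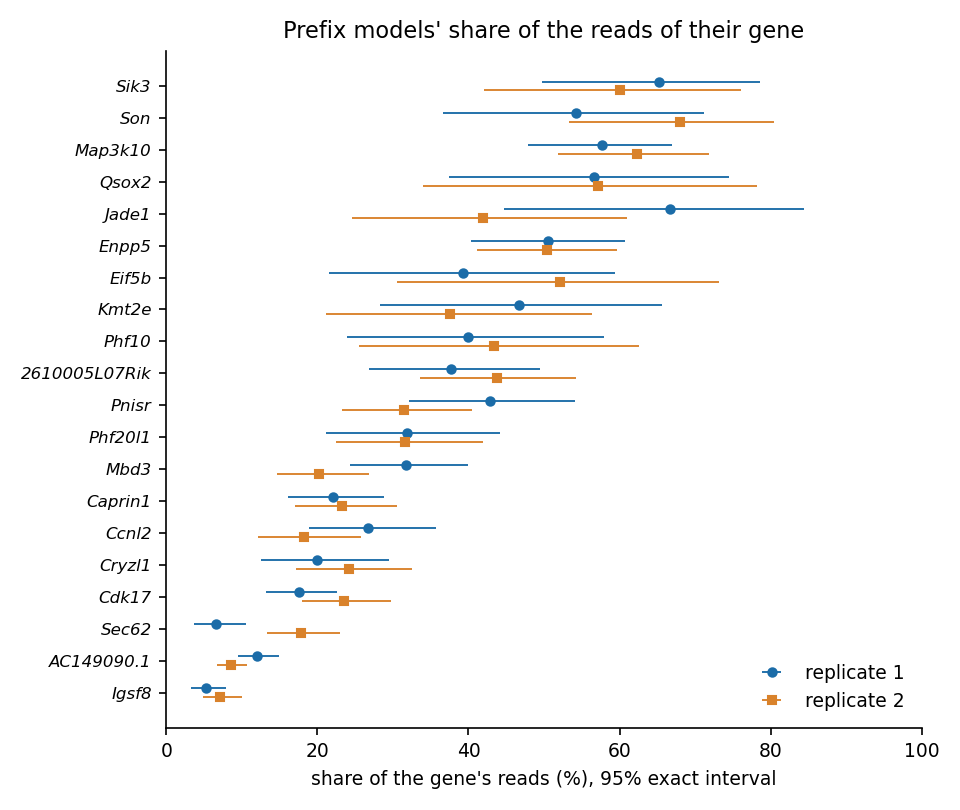
Share of the gene's reads (x axis, percent) held by the 20 prefix models named for their reads or for their share, in replicate 1 (blue circles) and replicate 2 (orange squares), with 95% exact binomial intervals. Intervals of the libraries overlap for all but Sec62, at 6.55% and 17.8%.

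Whether a model's part of its gene differed between replicate 1 and replicate 2 was tested for 13051 spliced chains of all kinds with at least 10 reads, by Fisher's exact test (two-sided) with Benjamini-Hochberg adjustment. It compares 2 libraries, not conditions. Of the 137 prefix models tested, 0 passed an adjusted p of 0.05, where 0.130% of all chains did, and 7 had an unadjusted p under 0.05 (5.11%), where 4.69% of all chains did. The rule asks for reads in both libraries and so removes the widest differences, so these counts say nothing particular to the models. Their median log2 odds ratio, replicate 1 over replicate 2, was 0.00 (0.03 over all chains). Sec62, a subunit of the protein translocation channel of the endoplasmic reticulum, had the smallest p. Its model, which ended at a 5′ splice site after 3 of 7 introns, had 15 of 229 reads in replicate 1 and 47 of 264 in replicate 2. The log2 odds ratio was -1.60 (95% interval -2.47 to -0.72), with an adjusted p of 0.115 by the exact test over all chains. The models summed to 4075 CPM in replicate 1 and 3780 CPM in replicate 2, a log2 ratio of 0.11 (0.04 to 0.18, counting error only).

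Most deposited ends were annotated ends. In 569 of 1020 models (55.8%) in replicate 1 and 585 (57.4%) in replicate 2 the end was exactly the end of an annotated transcript of the gene, against 43.8% and 45.6% for prefix models of 1 library. Chains of the NIC and NNC kinds, whose splice sites or combinations of splice sites are not annotated, were matched by the same rule. Of these 11889 chains, 86.8% and 86.9% had an annotated end. For the prefix models matched in both libraries, the value within 50 bases was 55.9% and 57.5%, so few ends lay near an annotated end without being one. Of the matched ends, 340 and 359 belonged to protein-coding transcripts, 137 and 130 to retained-intron transcripts, and 43 and 42 to transcripts annotated for nonsense-mediated decay. Among models that reached the last exon, 89.3% and 89.9% had an annotated end, among those that ended in the next intron 37.5% and 38.3%, and among those that ended inside an exon 71.4% and 75.5%. Starts were annotated starts in 98.2% and 98.1%. How model ends were set from the reads is not given in the sources used here, and its part in these shares was not tested.

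The 2 libraries placed 656 ends (64.3%) at the same base and 805 (78.9%) within 50 bases. The share within 50 bases was 84.3% for the 11889 NIC and NNC chains. More of those chains had an annotated end. Among prefix models with an annotated end in both libraries, 499 of 535 (93.3%) ended within 50 bases. The shares of all prefix models and of NIC and NNC chains therefore do not compare on equal terms. Of the 317 prefix models that had neither an annotated end nor a splice site as the end in either library, 138 (43.5%) ended at the same base and 238 (75.1%) within 50 bases. Ends at unannotated places thus also fell close together in most cases.

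A poly(A) signal, searched as AATAAA or ATTAAA on the transcript strand in the last 50 bases, was found in 438 of 715 readable windows (61.3%) in replicate 1 and 455 of 728 (62.5%) in replicate 2. It was found in 71.8% of 14320 ends of annotated transcripts read in both libraries, in 79.8% and 80.3% of NIC and NNC ends, and in 50.3% and 50.5% of ends of prefix models of 1 library. Among the matched prefix models, the share differed by whether the end was annotated and by its place. At annotated ends it was 71.6% and 72.6%, and at other ends 26.4% and 27.2%. In models of 1 library it was 67.4% and 66.2%, against 15.7% and 15.3%. By place, the share in the matched models was 83.1% and 85.9% at ends in the last exon, 61.1% and 58.3% in the next intron, 21.3% and 23.9% inside an exon and 7.89% and 10.0% at a 5′ splice site. Place and annotation were mixed, since 89.3% and 89.9% of models that reached the last exon had an annotated end. For ends in an intron the windows covered only 167 of 379 and 168 of 371 models, and 142 of the windows in each library were at annotated ends. There the signal was found in 62.7% and 61.3%, and in the other 25 and 26 windows in 52% and 42.3%. A match is a run of letters and not a shown site of cleavage.

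A-rich stretches, taken as at least 12 A in the 20 bases after the end or 6 A in a row there, were most frequent at ends inside an exon. They followed 23 of 47 ends inside an exon (48.9%, 95% exact interval 34.1 to 63.9%) in replicate 1 and 21 of 46 (45.7%, 30.9 to 61.0%) in replicate 2. Of all windows of 20 bases in the 818 parent transcripts, 1.64% were A-rich. For ends at a 5′ splice site, the first 20 bases of the parent's next exon were A-rich in 8 of 79 (10.1%, 4.47 to 19.0%) and 9 of 83 (10.8%, 5.08 to 19.6%). After all 9772 exon junctions of the same parents the share was 1.46%. At ends in the next intron it was 14.0% and 14.3% of 50 and 49 readable windows. In the last exon it was 8.82% and 10.0% of 102 and 100 readable windows, beside 9.05% of 3326 at annotated ends. The bases after an end were readable only where an annotated exon of the gene runs on past it. The 3326 windows came from 14407 annotated ends, so 9.05% does not stand for all of these. Prefix models of 1 library had an A-rich stretch after 20 of 65 (30.8%) and 39 of 104 (37.5%) ends inside an exon. For ends at a 5′ splice site, their next exon was A-rich in 5.28% and 6.10%. Their shares were 19.0% and 17.6% in the next intron and 6.92% and 9.47% in the last exon. Ends inside an exon thus carried fewer poly(A) signals and more A-rich stretches than ends in the last exon, and the part of priming inside the RNA in them was not tested.

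**Figure D5:**
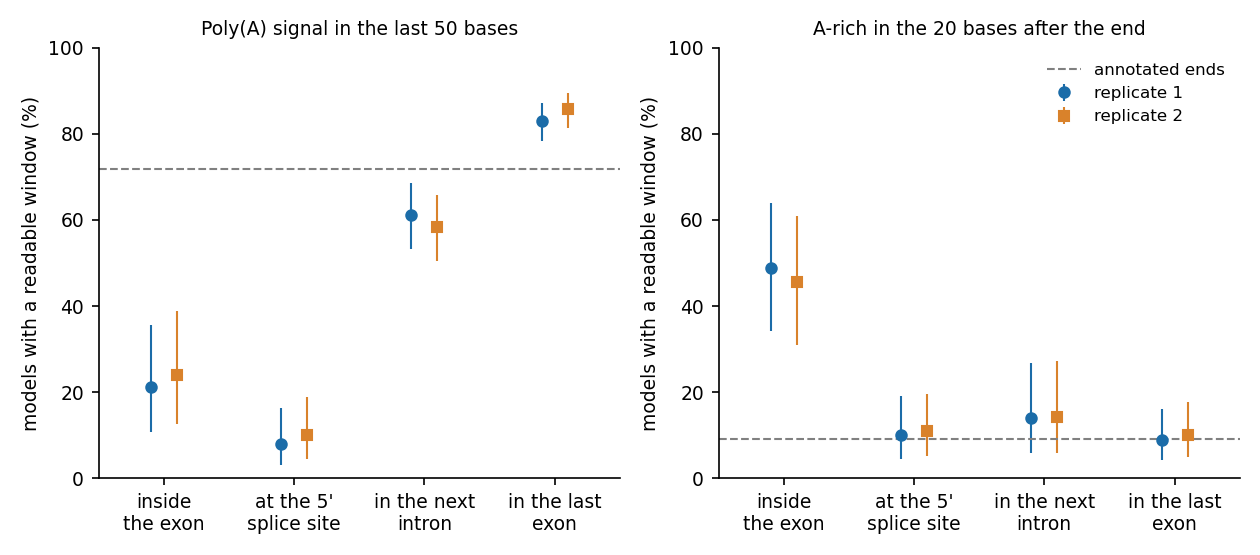
Share of prefix models with a poly(A) signal in the last 50 bases (left panel) and with an A-rich stretch in the 20 bases after the end (right panel), in percent of readable windows, by place of the end, in replicate 1 (blue) and replicate 2 (orange) with 95% exact intervals. For ends at the 5′ splice site the right panel shows the parent's next exon. Dashed lines give ends of annotated transcripts with a readable window, at 71.8% of 14320 and 9.05% of 3326.

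Gene lists put the models into neuronal context. Of 3195 genes with 50 or more reads in both replicates, 401 (12.6%) held a prefix model. RNA-binding and splicing regulators held one in 7 of 26 genes, synaptic vesicle and release genes in 6 of 21, postsynaptic and receptor genes in 5 of 20, and cytoskeleton and transport genes in 7 of 29. Ion channels, pumps and transporters had one in 3 of 13, neurodegeneration orthologs in 3 of 14, translation and chaperone genes in 5 of 29, energy metabolism in 4 of 27, and myelin and glial genes in 0 of 18. These lists differ in read depth, on which finding a model depends, and were not tested.

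Of the 17 models in RNA-binding and splicing genes, 12 reached the last exon in both libraries, beside 295 of all 1020 models. The 17 models lay in only 9 genes, with 4 of them in Hnrnpd, so they are not independent. The difference was not tested. Srsf2, a splicing factor with serine- and arginine-rich repeats, had 20 of 197 and 25 of 177 reads of a model whose last intron of 1059 bases was unspliced. Ddx5, an RNA helicase, had 17 of 629 and 7 of 609 reads of a model with 2 introns unspliced, and Hnrnpa2b1, a regulator of splicing and RNA transport, had 10 of 338 and 11 of 466. Son and Srrm2, another speckle protein, had models that ended inside an exon, that of Srrm2 with 2 reads in each library. Of all 14631 genes read in both libraries, 837 (5.72%) held a model. In the machinery of cleavage and polyadenylation 1 of 25 such genes did, Xrn2, the nuclear exonuclease, with 1 read in each. Among U1 snRNP and early-termination guards, Luc7l2, a U1-associated protein, had 9 of 34 and 10 of 43 reads of a model that ended in its last intron, with ends 1733 bases apart between libraries.

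In the vesicle and release list the models held a median of 0.377% of the gene's reads, and in the postsynaptic list 1.32%. The median over all 1020 models was 3.42%, and the lists of energy metabolism and of translation and chaperones had 0.245% and 0.300%. In genes with 20 or more reads in both replicates the median was 2.27% in replicate 1 and 2.08% in replicate 2. A model with 1 read holds a smaller share of a gene with more reads, so these medians depend on read depth and were not tested. In the vesicle and release list, the model of Syn1, which tethers synaptic vesicles, had most reads, 14 of 434 and 32 of 508. It had run through its last intron of 927 bases to 4 bases before the parent's end. Syt1, the calcium sensor of release, had 2 and 7 reads of a model ending in an intron. Gria2 and Gria4, AMPA receptor subunits, held 4 of the 7 models in postsynaptic genes. Of the gene's 273 and 296 reads, one Gria2 model had 12 in each library and another 8 in each. They differed in which of 2 alternative exons of 115 bases they carried, the pair known as flip and flop, and their ends lay 20 bases apart between libraries. The Gria4 model had 8 of 77 and 9 of 88 reads, and all 3 models had left the last intron unspliced.

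In the cytoskeleton list, Kif5c, a kinesin heavy chain of neurons, held 3 models. One ended at the 5′ splice site after 10 of 25 introns with 9 and 15 reads, and another in the intron after 22 of 25 with 7 and 15 reads, both at the same base in the 2 libraries. Map1b, a microtubule-associated protein, had 8 of 31 and 8 of 23 reads of a model that stopped inside its large exon, 5089 and 4735 bases before the 5′ splice site. Hsp90aa1, a chaperone, had 7 of 498 and 8 of 506 reads ending inside an exon at the end of Hsp90aa1-206, Eif4a2, an RNA helicase of translation, had 5 of 535 and 6 of 588, and Uqcrc1, of respiratory complex III, had 3 of 641 and 8 of 703. Atp2a2, the calcium pump of the endoplasmic reticulum, had 8 of 239 and 10 of 250 reads and no annotated parent.

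Of 19 genes read in both libraries that are known for a truncated or early-polyadenylated form, Epha5 and Ptprz1 held a model (10.5%, beside 5.72% of all genes so read). Of those with 50 or more reads in both replicates, 1 of 8 held a model (12.5%), beside 12.6% of all genes at that depth. Epha5, an ephrin receptor, had 15 of 85 and 10 of 74 reads of a model with 14 of 15 introns that ended 1848 bases into the last intron, at the end of the coding transcript Epha5-202. The models that ended farthest from the parent's end lay early in very long genes and rested on few reads. Macrod2 had 1 and 3 reads of a model that ended 1939829 bases before the parent's end after 2 of 18 introns. Pcdh9, a protocadherin, had 2 and 2 reads at 871370 bases, Cacna2d3, a calcium channel subunit, 2 and 3 at 626774 and 626813 bases, Grid1, a glutamate receptor of the delta class, 1 and 2 at 553220 bases, and Fam19a1, a secreted peptide of neurons, 2 and 3 at 541281 bases. Their end fell at the same base in both libraries except for Cacna2d3, where the ends were 39 bases apart. Pcdh9 and Fam19a1 ended at annotated ends, those of Pcdh9-203 and Fam19a1-204, and Macrod2, Cacna2d3 and Grid1 did not.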

How the data were processed

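For each library the authors deposited transcript models and their whole-number read counts, not normalized, per the file headers. Per the file headers and records, unannotated models came from TALON, and the labels give mm10; the aligner is not given in the sources used here. Spike-in reads were left out of totals. Matching used the intron chain with its chromosome and strand, and parents came from GENCODE M21. CPM scales to all mouse reads. Parents, end classes and sequence windows were computed with Python 3.11.15, pandas 2.3.3 and scipy 1.17.1, and library scaling was checked with edgeR 4.0.16. Shares carry 95% exact (Clopper-Pearson) intervals. These and floors of 3 counts cover counting error only. The usage test added 0.5 reads for log2 odds ratios, took chains with at least 10 reads and left out 123 chains with different genes in the 2 libraries. It was tested on simulated data. The models and gene lists were chosen with earlier results of these data known. Named were the 15 models with most reads, the 10 with the highest share of their gene, any past the usage test, the 5 farthest from the parent's end and up to 4 per list with at least 10 reads; Ssbp4, the models just outside the rule, Xrn2, Srrm2, Syt1 and Ptprz1 were named outside that rule after their values were seen, as were the bases after a 5′ splice site. Alternatives are given at the end. Depth limits statements on most models, whose median was 1 read in replicate 1 and 2 in replicate 2.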

Additional observations from a re-analysis of the deposited data

Results flagged for a closer look

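Prefix models of unannotated antisense or intergenic genes lay outside the rule. They held 13 reads in 8 models in replicate 1 and 19 reads in 15 models in replicate 2, above the 3 reads that a count of 0 allows.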

How the results depend on the processing

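No paired analysis was possible because the series has 1 group. Asking for 2 or 5 reads in each library left 352 or 118 models, asking for ends within 50 bases of each other left 805, and 1 library alone held 3190 to 3744. With spliced reads of known genes as the total, the models held 0.485%. The share ending in the next intron was 22.8% when any annotated exon of the gene counted as exonic and 42.9% with 5 reads in each library. Choosing the parent with most introns gave a median of 60.4% of introns kept and 63.9% of ends before the stop codon. Leaving out models that reach the last exon, chosen after seeing the data, gave 65.0% ending in the next intron, 50% of introns kept and 96.2% before the stop codon. The share with an A-rich stretch was 19.4% of the readable windows of all places, 277 in replicate 1 and 274 in replicate 2. In replicate 1, windows were read for 47 of 56 ends inside an exon but for 50 of 379 in the next intron. This share therefore does not stand for all models. It was 18.3% with 12 A of 20 only, 13.4% with 6 A in a row only, 21.8% with 10 A of 20 and 17.5% with 5 reads in each library. The share with a poly(A) signal, 61.9%, was 52.5% with AATAAA only, 58.1% in the last 40 bases without the last 10 and 74.6% with 11 hexamers. Against the reads of the annotated parents only, 1 model passed the usage test, Sec62, where only 91 chains, 88 of them matched models, entered the adjustment. Depth limits single models: the median was 1 and 2 reads, and a read in only 1 library does not show absence from the other.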
